A study of Homo sapiens with 4 samples.

Results

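The genes described here encode J-domain proteins, small heat shock proteins, BAG proteins, the HSP90 chaperones with 8 of their co-chaperones, and heat shock factors 1 and 2. They were chosen by name: protein-coding genes whose identifier maps in GENCODE 29 to DNAJA, DNAJB or DNAJC with a number, to BAG1 to BAG6, to HSPB with a number, or to 13 further listed genes. The rule found 69 genes among the 58174 in the tables. They are 4 DNAJA, 12 DNAJB and 26 DNAJC genes, 8 HSPB genes, 6 BAG genes, HSP90AA1, HSP90AB1 and TRAP1, 8 HSP90 co-chaperones, and the pair HSF1 and HSF2.

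RNA was sequenced from 293FT cells, a fast-growing human embryonic kidney line expressing the large T antigen of SV40. Libraries labelled NIPBLmut (replicates 1 and 2) were set against libraries labelled NIPBLwt (replicates 1 and 2). Both genotypes were grown in DMEM with serum, and the labels name no treatment. NIPBL encodes the protein that loads cohesin onto chromosomes, and the title refers to CHOPS and Cornelia de Lange syndromes. The kind of NIPBL mutation, the number of clones, and whether the libraries came from separate cultures are not given in the labels, so p-values measure only the spread between these libraries, which may be technical.

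J-domain proteins bring unfolded clients to HSP70 and stimulate its ATPase through their J domain. BAG proteins bind HSP70 and promote the exchange of its nucleotide, small heat shock proteins hold unfolding proteins in a soluble state, and HSP90 takes over clients such as kinases and steroid receptors with the help of co-chaperones. Heat shock factor 1 binds repeated GAA and TTC units, the heat shock element, and raises transcription of many of these genes under proteotoxic stress. Dividing cell lines express HSP90 and many of its partners abundantly without heat shock.

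The total expected counts were 31932304 and 32768728 in the mutant and 31545743 and 33161120 in the wild-type libraries. NIPBL itself had 61.03 and 61.96 CPM (read counts scaled to library size) in the mutant and 41.81 and 44.45 CPM in the wild-type libraries, a log2 fold change of 0.51 (standard error, SE, 0.11, adjusted p = 0.057 by edgeR). The nearest 25 protein-coding genes tested on either side of NIPBL had a median log2 fold change of 0.42. With that median taken off, NIPBL had 0.09 (SE 0.11, adjusted p = 0.644 by edgeR). Without the kind of mutation the level of NIPBL does not check the labels. The wild-type libraries were less alike than the mutant libraries: the mutant pair had a chi-square of 3.97 per gene and the wild-type pair 44.6, where about 1 is sampling noise alone. Of 13 listed markers of the HEK293 lineage all were tested, with KRT8 called higher and NEFM, VIM, LIN28B and SIX2 lower by edgeR. They summed to 858 to 915 CPM in mutant and 1173 to 1330 CPM in wild-type libraries. The neurofilament gene NEFM had 1.33 and 0.833 CPM in mutant and 72.8 and 63.9 CPM in wild-type libraries, and PAX2 stayed under 1 CPM in all 4. INA went the other way, with 24.6 and 26.7 CPM in mutant and 6.58 and 12.7 CPM in wild-type libraries. Its log2 fold change was 1.42 (adjusted p = 0.0586 by edgeR). Of the 13 markers, 8 had a log2 fold change below 0 and 5 above. Fibroblast markers summed to 21.1 to 21.2 CPM in mutant and 10.7 to 16.1 CPM in wild-type libraries, with COL1A2 at 0 in every library. Of these, edgeR called LUM (log2 fold change 1.84) and PDGFRB (2.81) higher and COL3A1 (-2.04) lower. Blood markers summed to 3.55 to 3.59 CPM in mutant and 1.004 to 1.55 CPM in wild-type libraries, with CD3E and HBB at 0. Muscle markers summed to 3.11 to 3.68 CPM in mutant and 1.31 to 1.74 CPM in wild-type libraries, with CKM called higher by edgeR (log2 fold change 2.01) and MYH7 at or under 0.0322 CPM. Testis markers reached at most 0.115 CPM in mutant libraries and were at 0 in wild-type libraries. The part of these markers in the results was not tested.

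The heat shock element letters are shown first, because the members that carry them in repeats recur in the results. RefSeq promoter sequences (GRCh38.p14, 250 bases before to 50 after each annotated start) were found for 60 of the 69 genes. BAG4, DNAJC1, DNAJC22, DNAJC24, FKBP4, HSF1, HSPB11, HSPB2 and STUB1 had no entry. The letters searched on both strands were GAANNTTC (2 facing units), TTCNNGAA (2 units back to back) and GAANNTTCNNGAA (3 alternating units), the last of which contains both of the others. The 3 alternating units occurred in 0.49% of all 35116 promoters and at some start of 0.608% of 27305 genes, against 5 of the 60 members (8.33%): CHORDC1, DNAJA1, DNAJB6, HSP90AA1 and HSP90AB1. For HSP90AA1 and HSP90AB1 the match was at 1 of several annotated starts. GAANNTTC alone occurred at some start of 8.21% of genes and of 13 members (21.7%), and TTCNNGAA of 9.46% of genes and of 10 members (16.7%). A match is a description of letters and not a shown binding site.

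Below, 30 bases around each 3-unit match are written 5′ to 3′ on the gene's strand, with the matching letters in capitals. HSP90AB1 had a pair of separate matches, and in CHORDC1 overlapping matches ran together.
HSP90AA1, minus strand, chr14:102087112-102087141: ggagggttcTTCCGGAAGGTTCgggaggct
HSP90AB1, plus strand, chr6:44247769-44247798: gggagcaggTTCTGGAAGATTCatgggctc
HSP90AB1, plus strand, chr6:44247822-44247851: ctgagattgTTCTGGAAGCTTCtggattct
CHORDC1, minus strand, chr11:90223084-90223113: accgGAAAATTCGCGAAGGTTCCTGAAacg
DNAJB6, plus strand, chr7:157336864-157336893: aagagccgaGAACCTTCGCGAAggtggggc
DNAJA1, plus strand, chr9:33025267-33025296: cgccgggcgGAACTTTCCAGAAcgctcggt
The HSP90AA1 match lay at -88 to -76 from its start, those of HSP90AB1 at -165 to -153 and -112 to -100, that of DNAJB6 at -131 to -119, and those of CHORDC1 between -60 and -38. The DNAJA1 match lay just inside the transcript, at 4 to 16. In GENCODE 29 the HSP90AA1, CHORDC1 and DNAJA1 stretches fall in an exon of a transcript of the same gene, and the HSP90AB1 and DNAJB6 stretches in none of theirs.

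Facing pairs without a further unit stood upstream of HSPB8, which was called higher in mutant libraries, and of DNAJB1 and BAG2, whose mutant values lay below both wild-type values. Upstream facing pairs also occurred in HSPB1, whose mutant values lay below both wild-type values too, and in DNAJA4, DNAJB7 and HSPB6, which were not tested. HSPB8 had a further pair at 5 to 12. The stretches below were picked by hand for contrast.
HSPB8, plus strand, chr12:119178832-119178861: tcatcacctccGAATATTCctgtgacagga
DNAJB1, minus strand, chr19:14518456-14518485: cgggcggggcgGAAGGTTCtggagggggct
DNAJB1, minus strand, chr19:14518426-14518455: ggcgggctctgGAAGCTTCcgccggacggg
BAG2, plus strand, chr6:57172191-57172220: tcgaccgatagGAACCTTCgcgtgggggga
The HSPB8 stretch lies in an exon of a longer HSPB8 transcript in GENCODE 29, and the other 3 stretches in no exon of their own gene.

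**Figure D1:**
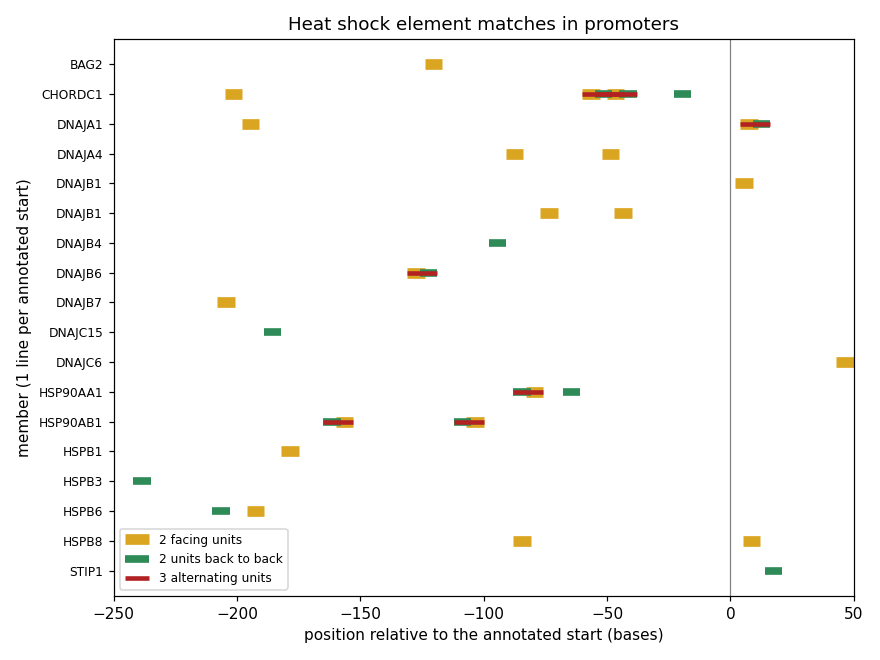
Positions of heat shock element letters relative to the annotated start (x axis, bases) for each member's promoter that had a match (y axis, 1 line per annotated start). Gold marks 2 facing units, green 2 units back to back and red 3 alternating units, which appear on the lines of CHORDC1, DNAJA1, DNAJB6, HSP90AA1 and HSP90AB1.

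In the comparison of genotypes, 62 of the 69 genes passed the filter on low counts and were tested. DNAJA4, DNAJB7, DNAJB8, HSPB2, HSPB3, HSPB6 and HSPB7 did not. Called means an edgeR adjusted p under 0.05 over all 18984 tested genes. 2 members were called higher, the small heat shock protein HSPB8 and the mitochondrial J protein DNAJC19, or 3.23% of those tested, set beside 3.71% of all tested genes. No member was called lower by edgeR, against 2.10% of all tested genes, while 20 had an unadjusted p under 0.05 in that direction (32.3%, against 13.8% of all tested genes) and 5 in the other (8.06%, against 15.9%). DESeq2 called 13 members lower (21.0%, against 6.35% of all tested genes) and 3 higher (against 6.82%), and limma on log2(TPM + 1) called none lower (against 0.627% of all tested genes) and 2 higher (3.23%, against 4.31%). TPM are scaled to transcript length as well as library size.

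In CPM both mutant libraries were below both wild-type libraries for 35 members (56.5%, against 30.8% of all tested genes). They were above for 11 (17.7%, against 32.3%). Statements on overlap between groups refer to CPM unless TPM is named. In TPM some of the 35 overlapped, such as STIP1, with 122 and 112 TPM in mutant and 120 and 221 TPM in wild-type libraries. How many did so was not counted. The median log2 fold change of the 62 was -0.25, against -0.01 over all tested genes. With total-count scaling the median of all tested genes moved to 0.17 and that of the members to -0.07, and on log2(TPM + 1) to 0.12 and -0.06. Relative to all genes the members thus had -0.24 in the main fit, -0.24 with total counts and -0.18 on TPM. In bulk RNA, fewer cells that express a gene and less RNA per cell cannot be told apart.

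The wild-type libraries did not hold these genes at 1 level. Replicate 2 exceeded replicate 1 in 45 of 62 members (72.6%, against 48.2% of all tested genes), by a median of 0.28 on the log2 scale, against -0.02 over all tested genes. The mutant libraries differed by a median of -0.03. The mutant mean lay a median of 0.08 below wild-type replicate 1 (a log2 difference of -0.08) and of 0.30 below replicate 2 (-0.30). Without wild-type replicate 2 the members' median log2 fold change was -0.09, and without replicate 1 it was -0.32. In such fits the close mutant pair alone sets the spread, so their calls are not used.

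**Figure D2:**
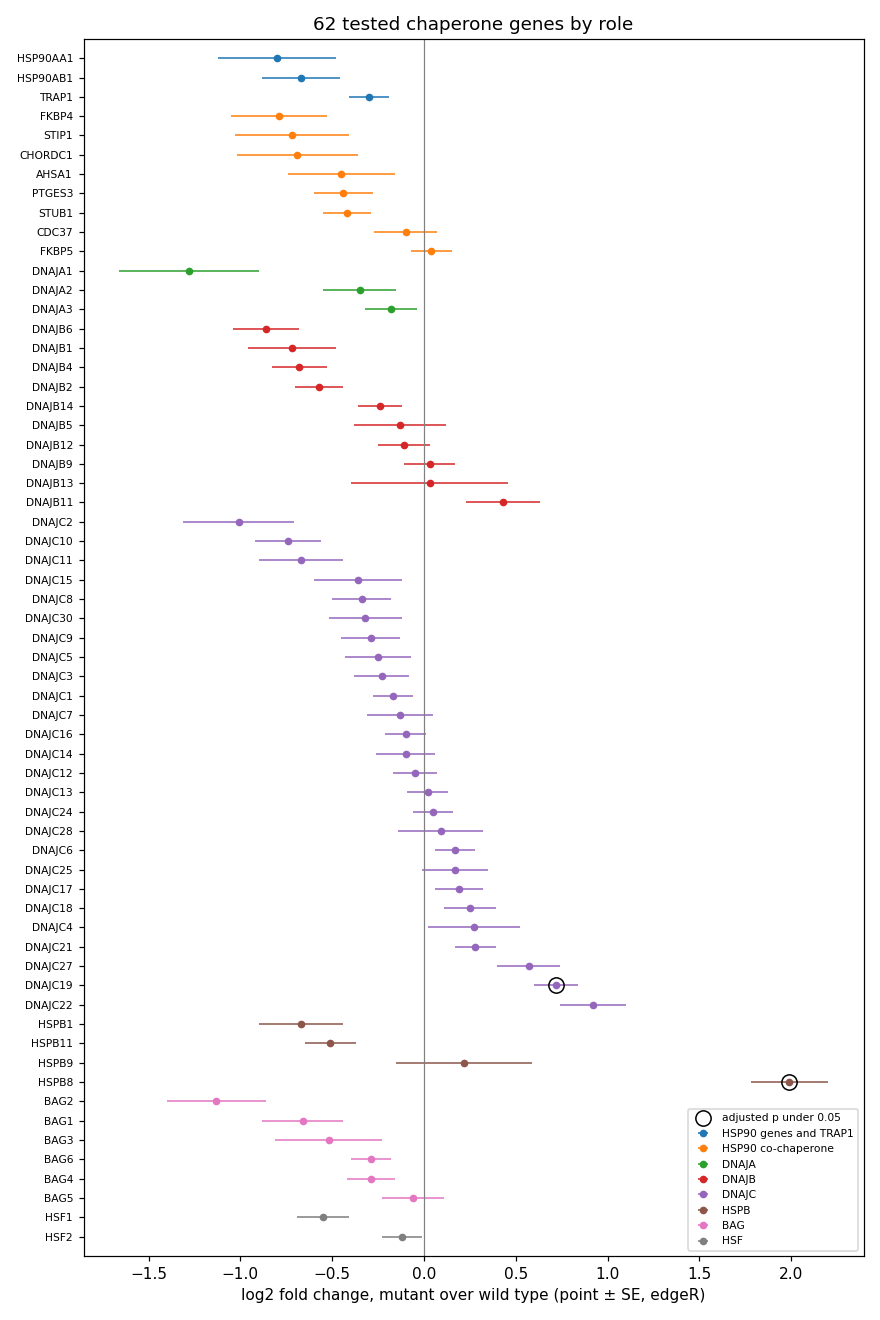
Log2 fold change of mutant over wild type (x axis, point ± SE from edgeR, n = 2 each) for the 62 tested members, grouped by role and coloured by it. Open circles ring the 2 called genes, HSPB8 at 1.99 and DNAJC19 at 0.72, and 44 of the 62 points lie below 0 in this fit, or 34 with total counts and 33 on log2(TPM + 1).

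HSP90 is made in the cytosol from 2 genes, the inducible HSP90AA1 and the constitutive HSP90AB1, and TRAP1 is its mitochondrial relative. The cytosolic pair had the highest mean TPM of all members. HSP90AB1 had 269 and 234 TPM in mutant and 286 and 408 TPM in wild-type libraries, and HSP90AA1 had 216 and 181 TPM in mutant and 216 and 383 TPM in wild-type libraries. HSP90AB1 was above HSP90AA1 within each of the 4 libraries, with a ratio of 1.25 and 1.29 in mutant and 1.32 and 1.07 in wild-type libraries, while their ranges over all libraries overlapped.

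In scaled counts HSP90AA1 had 653 and 532 CPM in mutant and 708 and 1360 CPM in wild-type libraries. Wild-type replicate 2 stood well above the other 3, and the groups did not overlap. The log2 fold change reached -0.80 (SE 0.32, adjusted p = 0.164 by edgeR and 0.0269 by DESeq2), and it was -0.26 without wild-type replicate 2 and -1.21 with replicate 1 left out. HSP90AB1 had 779 and 676 CPM in mutant and 925 and 1381 CPM in wild-type libraries, again without overlap, at -0.67 (SE 0.21, adjusted p = 0.114 by edgeR and 0.0204 by DESeq2), and at -0.35 without wild-type replicate 2. These 2 genes also showed the widest gaps between the mutant libraries after HSPB8 among members of at least 5 CPM, with mutant replicate 2 lower by 0.30 and 0.21 on the log2 scale. TRAP1 had 175 and 176 CPM in mutant and 222 and 210 CPM in wild-type libraries. Its libraries were close within each group, and the log2 fold change was -0.30 (SE 0.11, adjusted p = 0.146 by edgeR), or -0.34 and -0.28 without wild-type replicate 2 and 1. TRAP1 shares 29.3% of its exon bases with DNASE1 on the other strand.

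The HSP90 co-chaperones include STIP1 (HOP), which links HSP70 to HSP90, AHSA1, which stimulates the HSP90 ATPase, the prolyl isomerases FKBP4 and FKBP5 of steroid receptor complexes, PTGES3 (p23), which stabilises the closed chaperone, CHORDC1, the kinase adaptor CDC37, and the ubiquitin ligase STUB1 (CHIP). None of the 8 was called by edgeR in either direction or by limma on TPM. At an unadjusted p under 0.05 by edgeR 3 passed, all lower (37.5%, against 13.8% of all tested genes). DESeq2 called 1 lower, FKBP4 (12.5%, against 6.35%). Their median log2 fold change was -0.44, and all 8 were higher in wild-type replicate 2 than in replicate 1.

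FKBP4 had 272 and 267 CPM in mutant and 343 and 587 CPM in wild-type libraries. The mutant pair was tight and lay below both wild-type values, with a log2 fold change of -0.79 (SE 0.26, adjusted p = 0.119 by edgeR and 0.0127 by DESeq2) that was -0.35 without wild-type replicate 2. STIP1 had 227 and 208 CPM in mutant and 244 and 471 CPM in wild-type libraries. Its mutant values lay just below wild-type replicate 1 and far below replicate 2. The log2 fold change of STIP1 was -0.72 (SE 0.31, adjusted p = 0.189 by edgeR) and -0.17 without wild-type replicate 2. CHORDC1, whose promoter carries overlapping heat shock element letters, had 78.9 and 77.9 CPM in mutant and 82.5 and 171 CPM in wild-type libraries. Its log2 fold change of -0.69 (SE 0.33, adjusted p = 0.23 by edgeR) was -0.08 without wild-type replicate 2. AHSA1 had 115 and 103 CPM in mutant and 104 and 192 CPM in wild-type libraries, and there the groups overlapped, with a log2 fold change of -0.45 (SE 0.29) that turned to 0.05 without wild-type replicate 2.

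STUB1 had 64.8 and 63.5 CPM in mutant and 77.4 and 93.7 CPM in wild-type libraries, without overlap in CPM. In TPM the groups overlapped, at 51.3 and 47.6 in mutant and 50.5 and 59.9 in wild-type libraries. The log2 fold change of STUB1 was -0.42 (SE 0.13, adjusted p = 0.118 by edgeR), and -0.27 without wild-type replicate 2. STUB1 shares 42.4% of its exon bases with JMJD8 on the other strand. PTGES3 had 152 and 147 CPM in mutant and 174 and 230 CPM in wild-type libraries (-0.44, SE 0.16, and -0.22 without wild-type replicate 2). FKBP5, a textbook glucocorticoid target, had 52.2 and 55.8 CPM in mutant and 51.0 and 54.3 CPM in wild-type libraries, and its groups overlapped (0.04, SE 0.11). The 4 FKBP5 values lay close together. CDC37 also overlapped, at -0.10 (SE 0.17), and was at 0.12 without wild-type replicate 2.

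**Figure D3:**
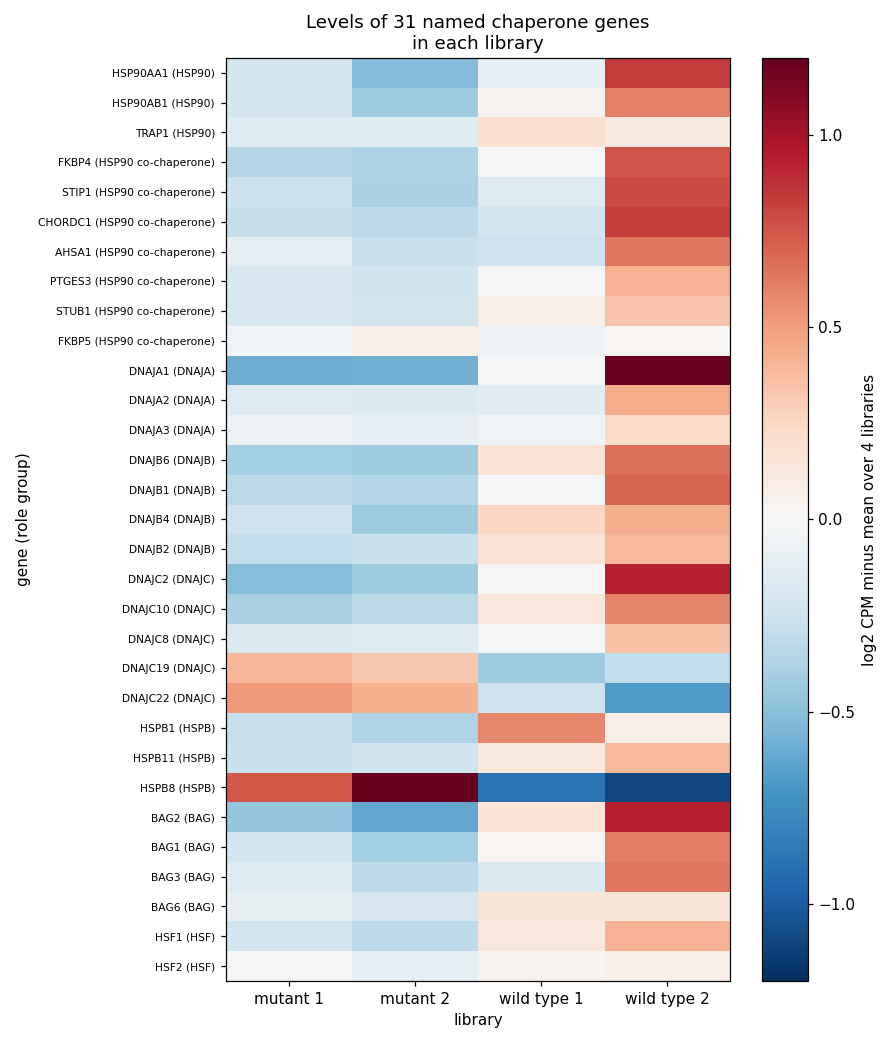
Log2 CPM minus the mean of each gene over the 4 libraries (colour) for the 31 named members (rows, with role group) in each library (columns, mutant left of wild type). Wild-type replicate 2 is the highest library for most HSP90, co-chaperone, DNAJA, DNAJB and BAG rows, while HSPB8, DNAJC19 and DNAJC22 are highest in the mutant columns.

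Among the J proteins, the DNAJA class resembles bacterial DnaJ. DNAJA1 and DNAJA2 are the main cytosolic partners of HSP70, and DNAJA3 works in mitochondria. DNAJA1 had 121 and 123 CPM in mutant and 181 and 412 CPM in wild-type libraries, with no overlap. It had the lowest log2 fold change of all tested members, -1.28 (SE 0.38), which edgeR did not call (adjusted p = 0.099) and DESeq2 did (adjusted p = 0.000626). It was -0.57 without wild-type replicate 2 and -1.77 with replicate 1 left out, and DNAJA1 also had the widest gap between the wild-type libraries among members of at least 5 CPM, 1.19 on the log2 scale.

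DNAJA2 had 151 and 150 CPM in mutant and 154 and 229 CPM in wild-type libraries (-0.35, SE 0.20), and DNAJA3 had 103 and 102 CPM in mutant and 105 and 127 CPM in wild-type libraries (-0.18, SE 0.14, and 0.02 on log2(TPM + 1)). Without wild-type replicate 2 both were at -0.03. DNAJA4 stayed at or under 0.0322 CPM, below the 3 counts per library that a count of 0 allows for counting error.

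The DNAJB class holds heat-inducible J proteins of the cytosol and some of the endoplasmic reticulum. 10 of 12 were tested, and none was called by edgeR or limma. At an unadjusted p under 0.05 by edgeR 4 passed, all lower (40.0%, against 13.8% of all tested genes). DESeq2 called 4 lower (40.0%, against 6.35%) and none higher. DNAJB6, a suppressor of polyglutamine aggregation, had 101 and 100 CPM in mutant and 152 and 213 CPM in wild-type libraries. Both mutant values lay below both wild-type values, and the log2 fold change was -0.86 (SE 0.18, adjusted p = 0.0571 by edgeR and 0.000657 by DESeq2), -0.60 without wild-type replicate 2. EdgeR called DNAJB6 lower with upper-quartile scaling, and without the filter together with BAG2, DNAJB4 and DNAJC10.

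DNAJB1 (HSP40), the classical inducible J protein, had 40.2 and 39.4 CPM in mutant and 49.5 and 81.5 CPM in wild-type libraries. Its log2 fold change was -0.72 (SE 0.24, adjusted p = 0.127 by edgeR and 0.0306 by DESeq2), and -0.32 without wild-type replicate 2. DNAJB4 had 14.0 and 12.4 CPM in mutant and 19.8 and 22.5 CPM in wild-type libraries (-0.68, SE 0.15, adjusted p = 0.0576 by edgeR). DNAJB2, which is known from neurons and carries ubiquitin-interacting motifs, had 17.1 and 17.4 CPM in mutant and 23.7 and 27.5 CPM in wild-type libraries (-0.57, SE 0.13). In DNAJB4 and DNAJB2 the 2 wild-type libraries lay closer together, 0.18 and 0.22 apart on the log2 scale, than in DNAJB1, where they lay 0.72 apart. Without wild-type replicate 2 DNAJB4 had -0.59 and DNAJB2 -0.46.

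DNAJB11 and DNAJB9 serve the HSP70 of the endoplasmic reticulum, BiP. DNAJB11 had 119 and 117 CPM in mutant and 70.5 and 104 CPM in wild-type libraries, and was the 1 DNAJB gene with both mutant values above both wild-type values (0.43, SE 0.20, adjusted p = 0.216 by edgeR). It lies at 186567403 to 186585800 on chromosome 3, where the nearest 25 protein-coding genes tested on either side (its neighbours) had a median log2 fold change of 0.74. DNAJB9 overlapped between groups, at 16.8 and 17.4 CPM in mutant and 17.9 and 15.6 CPM in wild-type libraries. DNAJB14 (-0.24), DNAJB5 (-0.13), DNAJB12 (-0.11) and DNAJB13 (0.03) were not called by edgeR, DESeq2 or limma. DNAJB7 and DNAJB8, known from testis, had no counts in any library, which allows up to 0.0888 and 0.0862 CPM in mutant and up to 0.0967 and 0.1 CPM in wild-type libraries for counting error alone.

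**Figure D4:**
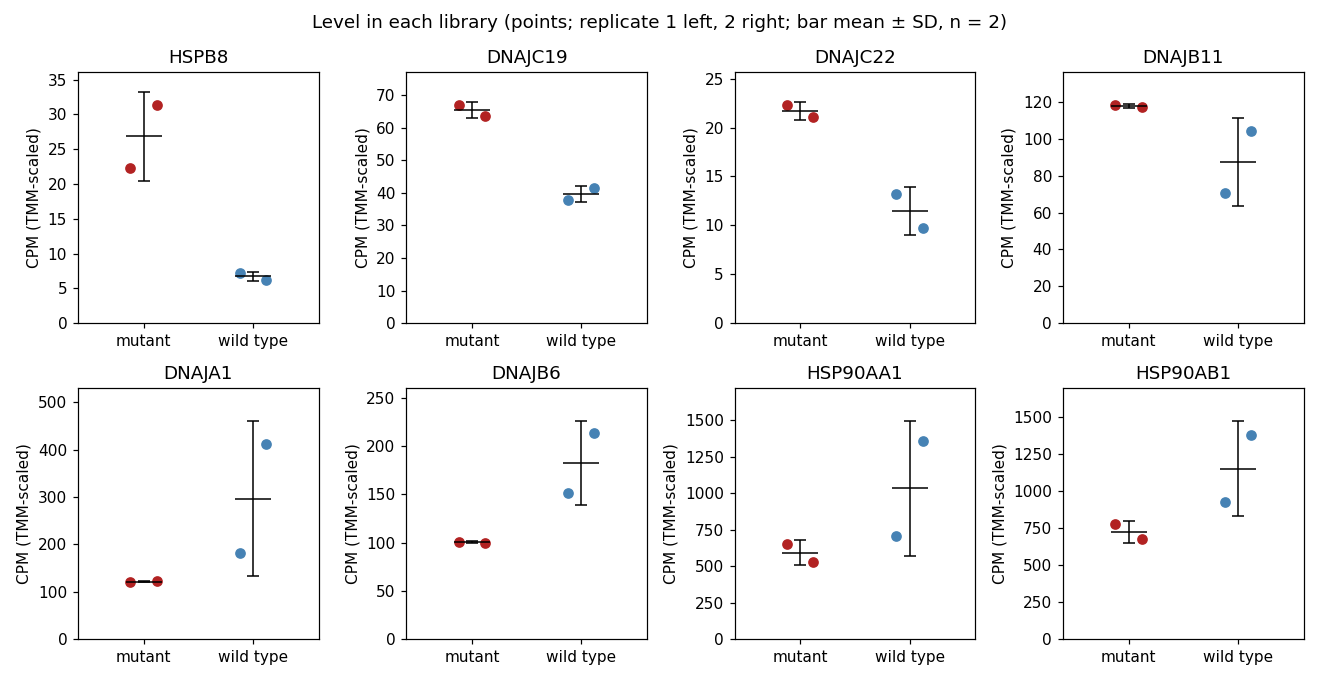
Level of 8 members in each library (y axis, CPM from 0, with replicate 1 left and 2 right within a genotype, bar and whiskers mean ± SD, n = 2). HSPB8, DNAJC19, DNAJC22 and DNAJB11 have both mutant points above both wild-type points, and DNAJA1, DNAJB6, HSP90AA1 and HSP90AB1 have them below, with wild-type replicate 2 the higher of its pair.

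The DNAJC class is a mixed group that shares little beyond the J domain. All 26 were tested, with a median log2 fold change of -0.07 that became 0.01 with upper-quartile scaling, 0.10 with total counts and 0.15 on log2(TPM + 1). EdgeR called 1 higher (3.85%, against 3.71% of all tested genes) and none lower. At an unadjusted p under 0.05 by edgeR 4 were higher (15.4%, against 15.9%) and 3 lower (11.5%, against 13.8%). DESeq2 called 2 higher and 3 lower (11.5% lower, against 6.35% of all tested genes), and limma 1 higher. Both mutant libraries were above both wild-type libraries in 9 (34.6%, against 32.3% of all tested genes) and below in 11 (42.3%, against 30.8%). DNAJC19, a subunit at the mitochondrial import motor, had 67.0 and 63.6 CPM in mutant and 37.9 and 41.4 CPM in wild-type libraries. Each pair was close, and the log2 fold change was 0.72 (SE 0.12, adjusted p = 0.037 by edgeR and 0.00146 by DESeq2).

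DNAJC19 (chromosome 3, 180983709 to 180989774, minus strand) lies in a stretch where such neighbours had a median of 0.56. With that median taken off, DNAJC19 had 0.16 (SE 0.12, adjusted p = 0.436 by edgeR). Its call was also lost without mutant replicate 1 (0.68, adjusted p = 0.265) or replicate 2 (0.76, adjusted p = 0.212), where the spread comes from the wider wild-type pair alone. DNAJC19 has 9 annotated pseudogenes, which together held 2.24% and 2.90% of the family's counts in mutant and 2.57% and 2.98% in wild-type libraries.

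DNAJC22, a membrane protein whose fly relative acts in endocytosis, had 22.3 and 21.1 CPM in mutant and 13.2 and 9.77 CPM in wild-type libraries. The groups were apart, at 0.92 (SE 0.18), with an edgeR adjusted p of 0.052 that was 0.0495 with total counts and 0.0264 without the filter, and a DESeq2 adjusted p of 0.00264. Its neighbours had a median of 0.03. DNAJC27, which carries a small GTPase domain, had 13.5 and 14.5 CPM in mutant and 10.3 and 8.57 CPM in wild-type libraries (0.57, SE 0.17, adjusted p = 0.0964 by edgeR), with neighbours at 0.41. DNAJC21, a ribosome biogenesis factor on chromosome 5, had 96.3 and 101 CPM in mutant and 81.0 and 81.9 CPM in wild-type libraries (0.28, SE 0.11), with neighbours at 0.46. With the neighbours' median taken off, DNAJC22 had 0.88, DNAJC27 0.17 and DNAJC21 -0.19.

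On the lower side, DNAJC2 (MPP11, zuotin), which sits on ribosomes, had 28.8 and 30.5 CPM in mutant and 41.4 and 77.8 CPM in wild-type libraries. The wild-type libraries were 0.91 apart on the log2 scale, and the log2 fold change was -1.01 (SE 0.30, adjusted p = 0.101 by edgeR and 0.00468 by DESeq2), or -0.48 without wild-type replicate 2. DNAJC10 (ERdj5), a disulfide reductase of the endoplasmic reticulum, had 134 and 140 CPM in mutant and 193 and 264 CPM in wild-type libraries (-0.74, SE 0.18, adjusted p = 0.068 by edgeR and 0.00341 by DESeq2). Its neighbours on chromosome 2 had a median of -0.40, and with it taken off DNAJC10 had -0.33. DNAJC11, of the mitochondrial membrane bridge, had 79.3 and 81.7 CPM in mutant and 98.3 and 158 CPM in wild-type libraries (-0.67, SE 0.23, and -0.29 without wild-type replicate 2), and shares 27.9% of its exon bases with THAP3 on the other strand.

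DNAJC8, a splicing-associated protein and the most abundant DNAJC gene per length, had 94.5 and 94.7 TPM in mutant and 93.9 and 117 TPM in wild-type libraries. In scaled counts its log2 fold change was -0.34 (SE 0.16), or -0.14 without wild-type replicate 2, next to -0.29 for its neighbours. The ER genes DNAJC3 (p58IPK) and DNAJC1 were at -0.23 (SE 0.15) and -0.17 (SE 0.11), and the mitochondrial genes DNAJC30 and DNAJC15 at -0.32 (SE 0.20) and -0.36 (SE 0.24). DNAJC7 (-0.13), DNAJC5, the synaptic vesicle cysteine string protein (-0.25), DNAJC9, a histone chaperone (-0.29), and DNAJC6, auxilin (0.17), were not called by any of edgeR, DESeq2 and limma. DNAJC12, DNAJC13, DNAJC14, DNAJC16, DNAJC24 and DNAJC28 lay between -0.10 and 0.09, and DNAJC4 (0.27), DNAJC17 (0.19), DNAJC18 (0.25) and DNAJC25 (0.17) on the higher side, all uncalled by edgeR. DNAJC9 shares exon bases with FAM149B1 on the other strand, and DNAJC14 23.2% with a gene on its own strand.

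The small heat shock proteins split. HSPB8, which works with BAG3 to send damaged proteins to autophagy, had 22.3 and 31.4 CPM in mutant and 7.22 and 6.26 CPM in wild-type libraries. HSPB8 rose by 1.99 on the log2 scale (SE 0.21, 3.98-fold, adjusted p = 0.0243 by edgeR and 2e-12 by DESeq2). The lower mutant library lay well above the higher wild-type library, and HSPB8 was also the member of at least 5 CPM with the widest gap between mutant libraries (0.49). Its wild-type libraries were closer together, with replicate 2 minus replicate 1 at -0.21. The log2 fold change of HSPB8 stayed between 1.73 and 2.22 when any 1 library was left out. HSPB8 (chromosome 12, 119178642 to 119221131, plus strand) has neighbours with a median of -0.02.

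HSPB1 (HSP27) had 6.54 and 6.12 CPM in mutant and 11.8 and 8.33 CPM in wild-type libraries, and here wild-type replicate 1 was the higher of the pair. Its log2 fold change was -0.67 (SE 0.23, adjusted p = 0.125 by edgeR), and -0.41 without wild-type replicate 1. HSPB11, also known as the ciliary transport protein IFT25, was the most abundant HSPB gene per length and had 21.3 and 21.7 CPM in mutant and 27.8 and 33.6 CPM in wild-type libraries (-0.51, SE 0.14, adjusted p = 0.0852 by edgeR). HSPB9, a testis gene, overlapped between groups (0.22, SE 0.37). HSPB7 was not tested and had 0.266 and 0.46 CPM in mutant and 0.0645 and 0.134 CPM in wild-type libraries. HSPB2, HSPB3 and HSPB6, which are known from muscle with HSPB7, stayed at or under 0.129 CPM in each library.

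**Figure D5:**
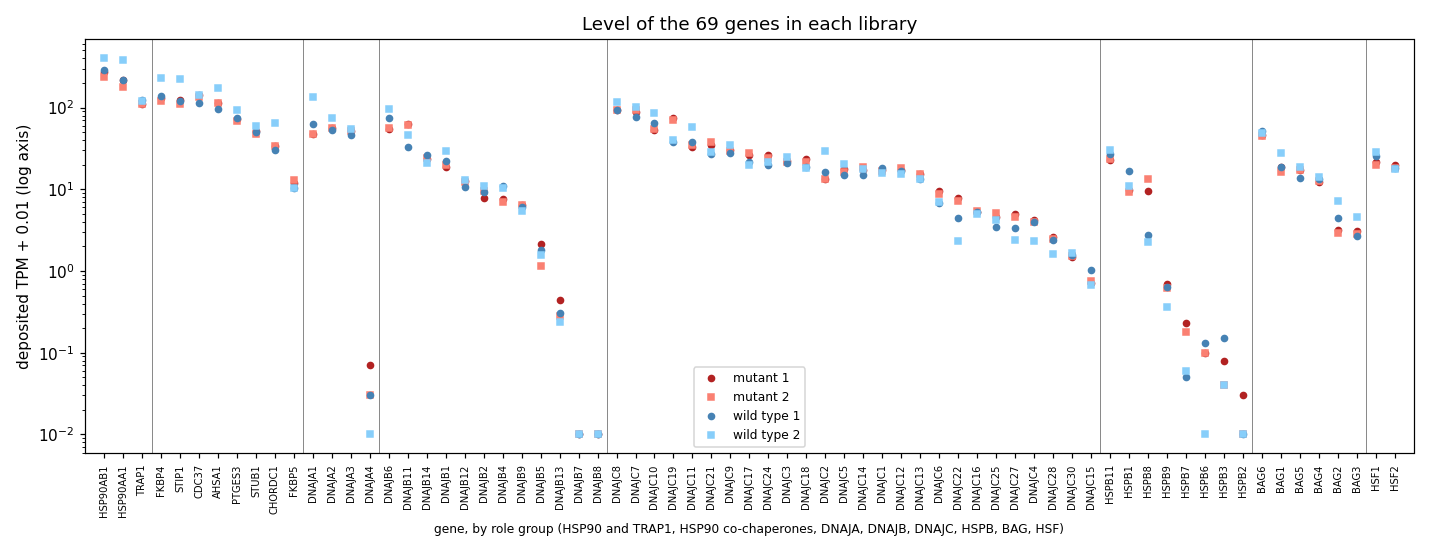
Deposited TPM plus 0.01 (y axis, log scale) of all 69 members (x axis, grouped by role and ordered by mean) in each library, mutant in reds and wild type in blues. HSP90AB1 and HSP90AA1 lead at means of 299 and 249 TPM, and 7 members that were not tested lie at the bottom of their groups.

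Among the BAG proteins, BAG2, which holds back STUB1, had 24.3 and 21.7 CPM in mutant and 37.3 and 63.7 CPM in wild-type libraries. The groups did not overlap, and the log2 fold change was -1.13 (SE 0.27, adjusted p = 0.0663 by edgeR and 0.000482 by DESeq2), -0.70 without wild-type replicate 2. BAG2 shares 42.7% of its exon bases with RAB23 on the other strand. BAG1, which links HSP70 to the proteasome, had 21.6 and 19.0 CPM in mutant and 25.7 and 38.8 CPM in wild-type libraries (-0.66, SE 0.22, adjusted p = 0.122 by edgeR), and was at -0.34 without wild-type replicate 2.

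BAG3, the HSPB8 partner and a textbook HSF1 target, had 8.52 and 7.64 CPM in mutant and 8.41 and 14.8 CPM in wild-type libraries. Its groups overlapped, and the log2 fold change of -0.52 (SE 0.29, adjusted p = 0.29 by edgeR) was -0.06 without wild-type replicate 2. BAG6, a guardian of membrane proteins on their way to the endoplasmic reticulum and the most abundant BAG gene per length, had 83.3 and 77.3 CPM in mutant and 98.1 and 97.9 CPM in wild-type libraries (-0.29, SE 0.11). The wild-type libraries agreed closely for BAG6. BAG4 and BAG5 were at -0.29 (SE 0.13) and -0.06 (SE 0.17). Of the 6 BAG genes none was called by edgeR or limma, 3 (all lower) passed an unadjusted p of 0.05, and DESeq2 called BAG2.

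The heat shock factors themselves were expressed in all libraries. HSF1 had 37.6 and 35.6 CPM in mutant and 48.5 and 58.9 CPM in wild-type libraries, without overlap (-0.55, SE 0.14, adjusted p = 0.075 by edgeR and 0.0328 by DESeq2). Its neighbours had a median of -0.35, and with it taken off HSF1 had -0.20 (SE 0.14). HSF2 had 57.6 and 53.2 CPM in mutant and 59.5 and 60.8 CPM in wild-type libraries (-0.12, SE 0.11, and 0.05 with total counts).

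The 5 members with 3 alternating heat shock units were set beside the 49 other tested members that have a RefSeq promoter, as a description. In CPM both mutant libraries lay below both wild-type libraries in all 5, in 24 of the 49 others and in 30.8% of all tested genes. In TPM the CHORDC1 groups overlapped, at 33.76 and 33.95 in mutant and 30.1 and 63.9 in wild-type libraries. The 5 had log2 fold changes of -1.28 to -0.67 and a median of -0.80. The 49 others had a median of -0.13 with a range of -1.13 to 1.99. Wild-type replicate 2 exceeded replicate 1 by 0.49 to 1.19 on the log2 scale in the 5 (median 0.94). In the 49 others that difference had a median of 0.22 and ran from -0.76 to 0.95, so the ranges overlapped. STIP1 (0.95) and DNAJC2 (0.91), for instance, were among the others. The mutant mean lay a median of 0.35 below wild-type replicate 1 in the 5 (a log2 difference of -0.35), against -0.07 in the others, and 1.13 below replicate 2 (-1.13), against -0.26.

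Genes of the same system outside the rule were counted from lists. Of 17 tested HSP70, HSP110 and chaperonin genes edgeR called HSPA4L, HSPD1 and HSPE1 lower and none higher, DESeq2 called 7 lower and none higher, and limma 2 lower. At an unadjusted p under 0.05 there were 9 lower (52.9%, against 13.8% of all tested genes) and none higher (against 15.9%). The median of the 17 was -0.87. Over all tested genes edgeR called 2.10% lower and 3.71% higher, and DESeq2 6.35% lower and 6.82% higher. HSPD1 and HSPE1 lie together on chromosome 2, where the neighbours had a median of -0.58. With it taken off, HSPD1 had -0.70 and HSPE1 -1.01 (adjusted p = 0.127 and 0.103 by edgeR). HSPA4L, with neighbours at -0.27, then had -0.95 (adjusted p = 0.0482 by edgeR). HSPA8, the constitutive HSP70, had 582 and 601 CPM in mutant and 853 and 2100 CPM in wild-type libraries, a gap between the wild-type libraries like that of DNAJA1 in direction. HSPA1A had 263 and 232 CPM in mutant and 732 and 2741 CPM in wild-type libraries. Its log2 fold change, -2.81 (SE 0.61, adjusted p = 0.0582 by edgeR), was the lowest of the 17, and -1.56 without wild-type replicate 2. HSPA1B was at -2.62 (SE 0.56). Of the 17, 14 lay below 0 and 3 above. Of 22 further co-chaperones and client factors none was called by edgeR or limma, with 7 lower and 1 higher at an unadjusted p under 0.05, 5 lower and 1 higher by DESeq2, and a median of -0.25. The 1 higher gene is TSC22D3, which is glucocorticoid-induced, is not a co-chaperone, and is counted again among the glucocorticoid-responsive genes, so no other gene of the list was higher by either measure. Of 16 endoplasmic reticulum stress genes none was called by edgeR, with 2 lower and 4 higher at an unadjusted p under 0.05, 3 higher by DESeq2, 1 higher by limma, and a median of -0.14. Of 5 glucocorticoid-responsive genes, set beside FKBP5, none was called by edgeR or limma, with 3 higher at an unadjusted p under 0.05 and 1 higher by DESeq2.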

How the data were processed

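The submitters' processing notes name RSEM 1.3.1, STAR 2.7.3a and the build hg38. For the annotation release and the strand setting, a statement is not given in the sources used here. Per the labels' protocols, ribosomal RNA was removed and libraries were made strand-specific. Per the file headers, the authors deposited 1 table per library with expected counts, which are RSEM's estimated reads per gene, and TPM. From these, expected counts were rounded and tested with edgeR 4.0.16 (R 4.3.3): filterByExpr by group, TMM scaling, robust quasi-likelihood test, Benjamini-Hochberg adjustment over 18984 genes, called under 0.05. CPM are TMM-scaled. Of 58174 gene IDs 57836 were matched to GENCODE 29 (GRCh38), whose coordinates are used for genes. Library differences used a prior of 0.5 counts. DESeq2 1.42.0, limma 3.58.1 on log2(TPM + 1) or log2(TPM + 0.1), other scalings and filters, a replicate block and leaving out each library were alternatives. A fit that takes off the median of 25 tested protein-coding genes on each side was chosen after seeing the data. The edgeR step was tested on simulated data. It recovered 7.6% of 1.5-fold, 51.2% of 2-fold, 82.8% of 4-fold and 91.6% of 8-fold changes, so smaller changes often go uncalled.

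The members and lists were chosen with earlier results of these data known. Members named were those called, 14 fixed genes, the 3 smallest p and the highest mean TPM of each role group, and those of at least 5 CPM with the widest gap between wild-type (6) or mutant (3) libraries. CDC37, DNAJB11, DNAJC11, DNAJC21, DNAJC27 and other members beyond these were described for completeness after their values were seen. A count of 0 allows up to 3 counts per library, for counting error only. Lists were described without a test.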

Additional observations from a re-analysis of the deposited data

How the results depend on the processing

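Over all genes edgeR called 704 higher and 399 lower. Higher calls were 1112 with total counts, 1132 and 786 (higher and lower) without the filter, 1294 and 1206 by DESeq2, 1470 and 809 with the replicate block, and 443 and 167 with the neighbourhood median taken off. Lower calls were 119 on log2(TPM + 1) and 110 on log2(TPM + 0.1). Leaving out 1 library gave 335 to 5909 higher and 64 to 5931 lower calls. Members called higher numbered 2, or 3 (with DNAJC22) with total counts, without the filter, by DESeq2 and with the replicate block, 1 with the neighbourhood median taken off and 1 to 10 without 1 library. Members called lower numbered 0, or 1 with upper-quartile scaling, 4 without the filter, 13 by DESeq2, 8 with the replicate block and 0 to 37 without 1 library. The cause of these differences was not tested, apart from the spread being taken from 1 pair when a library is left out.

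The replicate numbers are not shown to pair the libraries: replicate 1 minus 2 correlated at -0.0593 across genes between the genotypes. With the replicate block DNAJC19, DNAJC22 and HSPB8 were called higher, and BAG2, DNAJA1, DNAJB1, DNAJB4, DNAJB6, DNAJC2, DNAJC10 and FKBP4 lower.

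The members' median was -0.25, and -0.07 with total counts, -0.06 on log2(TPM + 1), -0.08 on log2(TPM + 0.1) and -0.32 to -0.09 without 1 library. The DNAJC median of -0.07 was 0.01 with upper-quartile scaling, 0.10 with total counts, 0.15 on both TPM scales and -0.09 to 0.02 without 1 library. The DNAJB median of -0.19 was -0.02 with total counts and on log2(TPM + 1), -0.04 on log2(TPM + 0.1) and -0.29 to -0.19 without 1 library. The HSF median of -0.34 was -0.16 with total counts, on log2(TPM + 0.1) and with the neighbourhood median taken off, -0.15 on log2(TPM + 1) and -0.43 to -0.26 without 1 library. The BAG median of -0.41 was -0.16 and -0.18 on the TPM scales and -0.65 to -0.24 without 1 library. Without 1 library the DNAJA median of -0.35 was -0.62 to -0.03, the HSPB median of -0.15 was -0.24 to 0.11, the HSP90 median of -0.67 was -0.94 to -0.34 and the co-chaperone median of -0.44 was -0.74 to -0.12.

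Without wild-type replicate 2 the fold change of 10 of 62 tested members changed sign and that of 22 more shrank by over 1.5 times. With the neighbourhood median taken off 10 changed sign, DNAJB11 (-0.31) and DNAJC21 (-0.19) among them. Another 14 then shrank by over 1.5 times, DNAJB2 (-0.24), DNAJC10 (-0.33) and HSPB11 (-0.23) among them, and 5 grew by over 1.5 times. BAG5 (0.16) and CDC37 (0.12) turned positive without wild-type replicate 2. Other genes that changed sign include HSF2 (0.05 with total counts, 0.08 on both TPM scales), DNAJA3 (0.02 and 0.03 on the TPM scales), FKBP5 (-0.02 without wild-type replicate 1, -0.01 without mutant replicate 2) and AHSA1 (-0.84 to 0.05 when either wild-type replicate was left out).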
